A study of Homo sapiens with 4 samples.

Results

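Galectins are lectins that bind β-galactoside sugars, and 5 galectin-family genes together with the gene of a glycoprotein that galectins bind are described here in A375 cells, a human melanoma line with an activating BRAF mutation. The 6 genes, chosen by name from 62649 gene identifiers, were LGALS1 (galectin-1), LGALS3 (galectin-3), LGALS8 (galectin-8), LGALS9 (galectin-9), LGALSL (galectin-related protein) and LGALS3BP (galectin-3 binding protein, not itself a galectin). All 6 were among the 24961 genes that passed the filter on low counts. Polyadenylated RNA was sequenced from 2 libraries of parental cells, the controls, and from 2 libraries of the resistant derivative, grown in stepwise higher doses (0.1 to 6.4 µM) of vemurafenib, which inhibits mutant BRAF. Both groups grew in RPMI-1640 with serum. The titles name no further drug for any of the 4 libraries. Not stated are whether the drug was still on the cells when RNA was taken, whether replicates were separate cultures and whether the resistant cells were a clone, so p-values measure only the spread among these libraries, technical or not.

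Galectins are made in the cytosol and leave the cell without a signal peptide. Outside, they cross-link glycoproteins that carry N-acetyllactosamine, and so hold receptors, integrins and matrix proteins together in lattices. Inside, several bind sugars exposed on damaged endosomes or lysosomes and recruit autophagy adaptors. In melanoma, galectin-1 and galectin-3 are best known for roles in adhesion, vessel growth and suppression of T cells. The series also profiled the glycan surface of these cells with lectins, and those measurements were not analysed here.

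Total counts ranged from 68022689 to 87178097 per library, and each count of control replicate 1 was even. That library also stood apart: 32101 genes had a count in it, against 36923 to 39454 in the others, and its correlation of log2 CPM over 10089 abundant genes was 0.916 and 0.923 with the resistant libraries. Control replicate 2 was as close to the resistant libraries (r = 0.959 and 0.966) as to control replicate 1 (0.962). Reads were assigned to genes per bulk library, so fewer cells expressing a gene and less RNA per cell cannot be told apart. The melanocytic marker list summed to 1065 and 1632 CPM (a gene's counts per 1000000 counts of its library, after TMM scaling) in controls and 1417 and 1283 CPM in resistant libraries. Its neural crest markers SOX10 and ERBB3 were abundant while the pigment gene TYR was at most 0.208 CPM in any library, and MITF, the melanocyte lineage factor, had 42.2 and 22.8 CPM in controls and 12.3 and 23.4 CPM in resistant libraries (log2 -0.86, edgeR adjusted p = 0.371). Leukocyte markers summed to between 1.01 and 2.15 CPM, with CD3E and MS4A1 at 0 counts in some libraries. Keratinocyte markers summed to 1.68 and 3.00 CPM in controls and 0.957 and 0.677 CPM in resistant libraries, with fold changes in both directions. KRT5 and TP63 were positive (log2 0.41 and 0.21), at most 0.338 and 0.381 CPM in any library. Fibroblast markers summed to 44.2 and 29.0 CPM against 25.5 and 28.9 CPM, with fold changes in both directions. LUM, named after its values were seen, had 2.18 and 1.43 CPM against 0.366 and 0.145 CPM (log2 -2.83, edgeR adjusted p = 0.0569). PDGFRB, DCN and COL1A2 were also negative (log2 -0.65, -0.97 and -0.02), while COL3A1 and COL1A1 were positive (0.99 and 0.28). Endothelial markers summed to 19.5 and 22 CPM against 47.3 and 25.9 CPM. Most of that was KDR, a VEGF receptor gene named after its values were seen (log2 0.96, edgeR adjusted p = 0.196). The rest of that list, PECAM1, CDH5 and VWF, had negative fold changes (log2 -0.59, -1.69 and -0.13). The part of these marker levels in the results was not tested. Of these marker genes 1 passed the test, against 1.09% of all tested genes. This was KRT14, which fell (log2 -2.56, edgeR adjusted p = 0.0355) from 1.62 and 2.08 to 0.309 and 0.314 CPM. That call was lost when resistant replicate 1 (log2 -2.54, edgeR adjusted p = 0.0789) or resistant replicate 2 (-2.57, 0.186) was left out, with little change in size.

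LGALS1 was the gene of the set with the largest difference and the smallest p: the fitted level was 1.79-fold lower in resistant cells, with both resistant libraries below both controls. LGALS3BP was 1.18-fold lower, LGALSL 1.29-fold higher and LGALS8 1.18-fold higher, each without overlap between the groups. LGALS3 and LGALS9 overlapped. None of the 6 genes passed edgeR's quasi-likelihood test over all genes (Benjamini-Hochberg adjusted p under 0.05), where 1.09% of tested genes did (0.577% higher and 0.513% lower in resistant cells). With an unadjusted p under 0.05 there was 1 of the 6, LGALS1, against 13.5% of tested genes, and DESeq2 called the same 1, where it called 5.31% of the 23171 genes to which it gave an adjusted p. Groups did not overlap for 4 of the 6 genes, against 44.6% of tested genes (22.4% higher and 22.2% lower in resistant cells), and nothing is read from that count.

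**Figure D1:**
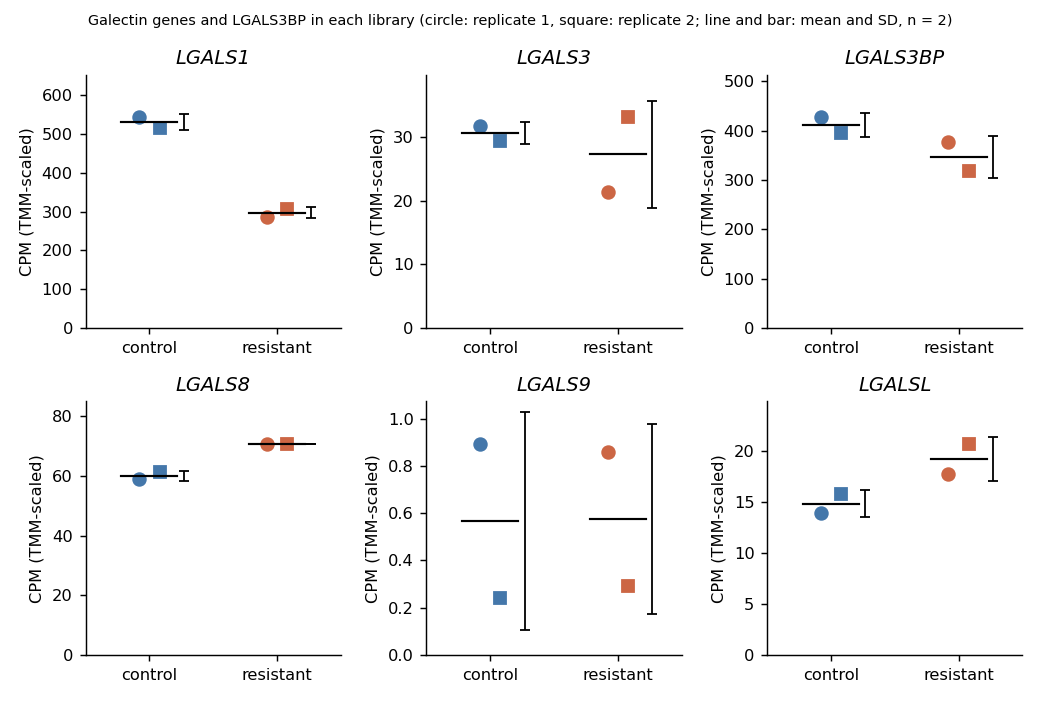
TMM-scaled CPM (vertical axes from 0, a scale for each gene) of the 6 genes in the 2 control and 2 resistant libraries; circles are replicate 1, squares replicate 2, lines the mean and bars the SD (n = 2). LGALS1 sits at 544 and 516 CPM in controls and 286 and 306 CPM in resistant libraries, while LGALS9 separates by replicate number and not by group.

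Levels can be compared between genes only per length of exon, as CPM per kilobase. On that scale LGALS1 had 497 ± 18.9 in controls and 278 ± 13.3 in resistant cells (mean ± SD, n = 2), a level at or above that of 99.8% and 99.6% of tested genes. LGALS3BP followed with 120.2 ± 6.89 and 101 ± 12.5 CPM per kilobase. LGALS3 was next at 13.9 ± 0.780 and 12.4 ± 3.80, then LGALS8 at 6.35 ± 0.174 and 7.49 ± 0.0017. LGALSL had 3.77 ± 0.330 and 4.88 ± 0.542, and LGALS9 was last at 0.0995 ± 0.0807 and 0.1005 ± 0.0703. The order was the same in each of the 4 libraries, and no neighbouring pair in it overlapped: the closest were LGALS8, whose lowest library had 6.23, and LGALSL, whose highest had 5.26. LGALS1 made up 95.2% and 95% of the summed level per length of 17 galectin-family genes in controls, and 92.1% and 90.8% in resistant libraries. Length here is all annotated exonic bases of a gene, 1067 for LGALS1 and 9462 for LGALS8, so this is not a share of transcript molecules. The ratio of LGALS1 to LGALS3 per length was 35.3 and 36.2 in controls and 27.6 and 19.0 in resistant libraries, and that of LGALS1 to LGALS3BP was 4.08 and 4.19 against 2.43 and 3.10. Both ratios were lower in each resistant library than in each control, and neither was tested.

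**Figure D2:**
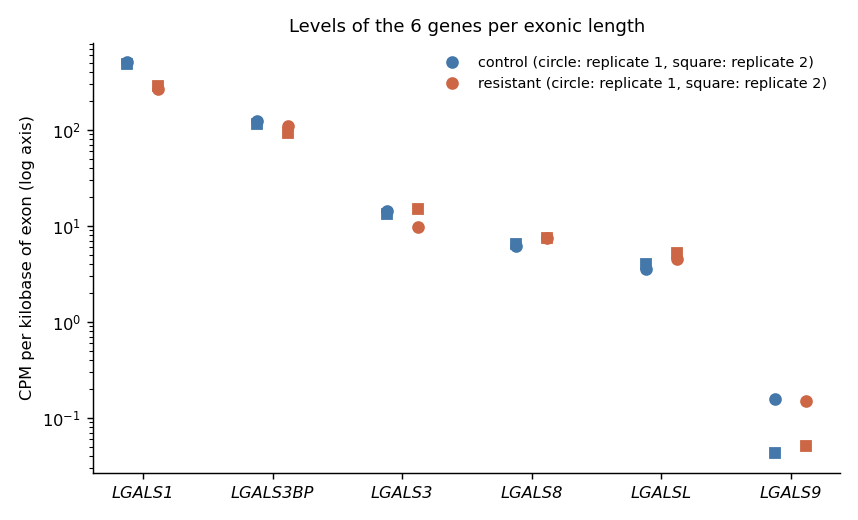
CPM per kilobase of exon (vertical log axis) of the 6 genes, ordered by their mean in controls, with controls in blue, resistant libraries in orange, circles for replicate 1 and squares for replicate 2. LGALS1 is highest in each library and LGALS9 lowest, and neighbouring genes in the order do not overlap.

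Galectin-1, the product of LGALS1 (ENSG00000100097.12, GRCh38 chromosome 22, 37675636 to 37679802, plus strand), forms homodimers of a single carbohydrate-binding domain. Its counts were 38950 and 44663 in control replicates 1 and 2 and 20355 and 25331 in resistant replicates 1 and 2, or 544, 516, 286 and 306 CPM. Each resistant library was below both controls, and the 2 libraries of each group lay closer to each other than to any of the other group. The log2 fold change was -0.84 ± 0.17 (SE; 95% interval -1.23 to -0.45, edgeR adjusted p = 0.0689). The interval leaves out 0, but the gene missed the threshold over all genes. Adjusted p was 0.00295 with DESeq2 and 0.00224 in edgeR without the filter on low counts, and both call it lower. DESeq2 called 5.31% of the genes to which it gave an adjusted p. The fit with no filter called 4.15% of its genes, against 1.09% with the filter. Leaving out control replicate 1 (log2 -0.80, edgeR adjusted p = 0.0401) or control replicate 2 (-0.87, 0.0132) also gave a call, in fits that called 2.99% and 8.15% of all genes tested, while leaving out resistant replicate 1 or 2 gave none (log2 -0.78 and -0.89, adjusted p = 0.275 and 0.259). The direction held in every one of these fits, and the size moved little. Among the 2126 genes that averaged 100 CPM or more, 59 (2.78%) had a fold change as low or lower, and the interquartile range of these genes was -0.21 to 0.17 on the log2 scale.

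Galectin-3, encoded by LGALS3 (ENSG00000131981.16, chromosome 14, 55124110 to 55145423, plus strand), is the chimera-type member, with a flexible N-terminal tail that lets it form pentamers. LGALS3 had 31.8 and 29.4 CPM in controls and 21.4 and 33.2 CPM in resistant replicates 1 and 2. The controls lay close together, and the resistant libraries lay on either side of them. The log2 fold change was -0.17 ± 0.23 (95% interval -0.71 to 0.38, edgeR adjusted p = 0.838). Without resistant replicate 1 it was 0.13 and without resistant replicate 2 -0.52, so the sign depended on 1 library.

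LGALS3BP (ENSG00000108679.13, chromosome 17, 78971238 to 78979947, minus strand) encodes a heavily glycosylated secreted protein, also known as 90K, that binds galectins, integrins and matrix proteins. It had 428 and 395 CPM in controls and 377 and 317 CPM in resistant libraries. Both resistant libraries were below both controls, but the gap between the groups was narrower than that between the 2 controls. The log2 fold change was -0.24 ± 0.18 (95% interval -0.66 to 0.17, edgeR adjusted p = 0.635), and 475 of the 2126 abundant genes (22.3%) had a value as low or lower.

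LGALS8 (ENSG00000116977.19, chromosome 1, 236518000 to 236552981, plus strand) encodes a galectin with 2 different carbohydrate-binding domains joined by a linker, known for marking damaged vesicles. Its levels were 59.0 and 61.3 CPM in controls and 70.8 and 70.9 CPM in resistant libraries. The difference between groups exceeded that within either group, yet was small: log2 0.24 ± 0.16 (95% interval -0.13 to 0.60, edgeR adjusted p = 0.588). Exons of genes on the opposite strand overlapped 28.7% of its exonic bases, and reads in such stretches were left out of the counts, which can lower its level per length. The overlapping gene HEATR1, which encodes a ribosome biogenesis factor, had 185 and 200.3 CPM in controls and 227 and 252 CPM in resistant libraries (log2 0.31, edgeR adjusted p = 0.488), and its part in the LGALS8 values was not tested. The antisense gene LGALS8-AS1 was at most 0.675 CPM.

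LGALS9 (ENSG00000168961.17, chromosome 17, 27629798 to 27649560, plus strand) encodes the other tandem-repeat member of the set, a ligand of the T cell receptor TIM-3. It was barely detected, with 64 and 21 counts in control replicates 1 and 2 and 61 and 24 in resistant replicates 1 and 2. On the CPM scale these were 0.894, 0.242, 0.858 and 0.290, above the 0.0346 to 0.0422 CPM that 3 counts are worth (counting error only). The libraries numbered 1 were at least 2.96-fold above those numbered 2 in either group. The log2 fold change was 0.02 ± 0.73 (95% interval -1.69 to 1.72, edgeR adjusted p = 0.995), and leaving out resistant replicate 1 gave -0.95 but leaving out control replicate 1 gave 1.23, so no direction could be read. Looked at after these values were seen, 135 of 24961 tested genes (0.541%) had both libraries numbered 1 at least 2-fold above both numbered 2. The reverse held for 102 genes (0.409%). Of the 135 genes 134 were under 1 CPM in the higher group, 1.51% of the 8856 genes at that level. Reads that match LGALS9 and its near-identical copies LGALS9B and LGALS9C equally well were not counted, so the LGALS9 counts come from reads unique to it. The copies had at most 4 counts in any library.

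LGALSL (ENSG00000119862.13, chromosome 2, 64453969 to 64461381, plus strand) encodes a galectin-fold protein that lacks residues needed for binding lactose. It had 13.9 and 15.7 CPM in controls and 17.7 and 20.7 CPM in resistant libraries. Each resistant library was above each control, with a spread in the resistant libraries wider than the gap between the groups. The log2 fold change was 0.37 ± 0.20 (95% interval -0.09 to 0.83, edgeR adjusted p = 0.486), between 0.26 and 0.49 with 1 library left out.

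**Figure D3:**
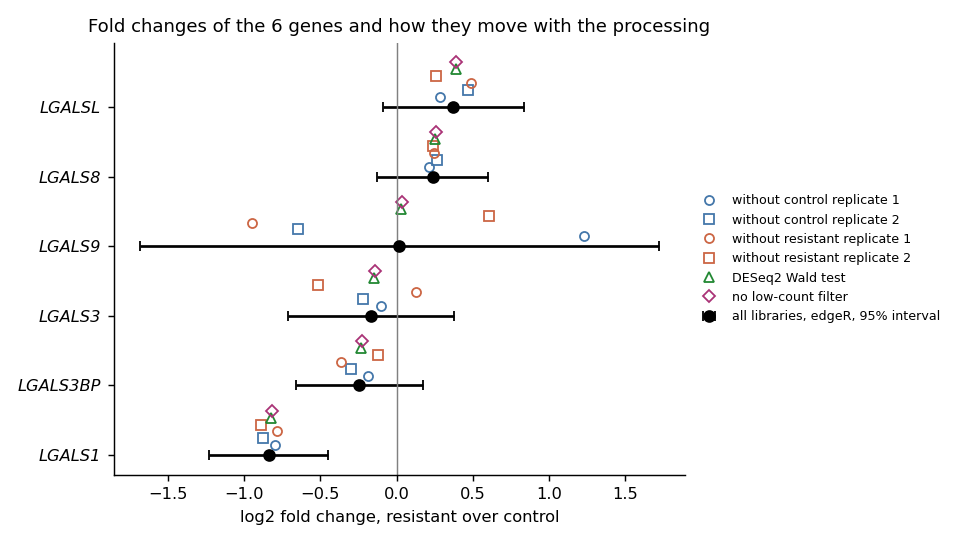
Log2 fold change of resistant over control (horizontal axis) for each of the 6 genes: filled points are edgeR on all libraries with the 95% interval, open symbols are fits with 1 library left out, DESeq2, or no filter on low counts. LGALS1 lies between -0.89 and -0.78 in every fit shown, LGALS3 and LGALS9 fall on both sides of 0, and the intervals of the other 5 genes include 0.

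The other 12 galectin-family genes were near the limit of detection, with at most 0.774 CPM in any library, and 8 of them had no more than 8 counts in each library. The 2 that passed the filter, named here after their values were seen, were LGALS4, with 0.503 and 0.473 CPM in controls and 0.675 and 0.774 CPM in resistant libraries, and LGALS2, with 0.503 and 0.554 CPM against 0.436 and 0.375 CPM. Neither passed edgeR (adjusted p = 0.634 and 0.800), neither had an unadjusted p under 0.05, and DESeq2 called none of the list. LGALS12, which did not pass the filter, had 36 and 10 counts in controls and 1 and 4 in resistant libraries. It was called lower by edgeR in the fit with no filter and in the fit that left out control replicate 2, where 4.15% and 8.15% of all genes were called.

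Sequence around the annotated start sites differed among the genes in CpG content and in an interferon-type motif. RefSeq windows of 300 bases (250 before and 50 after an annotated start, GRCh38.p14) were at hand for 5 of the 6 genes, not LGALS1. LGALS3 had 39 CpG in its window (78.3% G and C), LGALSL 28 (76.3%), the 3 windows of LGALS8 24, 16 and 2, LGALS3BP 4 (56.7%) and LGALS9 2 (50.7%), where the median of 35116 windows was 14 CpG (58.7% G and C). LGALS3BP and LGALS9, both known from other systems as interferon-inducible, each held 1 copy of GAAANNGAAA, the core of the interferon-stimulated response element. Both strands were searched, and 3.57% of all windows held the motif. None of the 10 other galectin-family genes with a window did, nor did those of LGALS3, LGALS8 and LGALSL. The motif began 58 bases before the start in LGALS3BP and 9 bases before it on the opposite strand in LGALS9. A match is a description of letters, not evidence of a bound site. Printed 5′ to 3′ on the gene's strand are stretches at these RefSeq starts, with capitals for CpG in LGALS3 and LGALSL, the windows richest in it, and for the motif in LGALS3BP and LGALS9. Those of LGALS3 and LGALSL run up to the start and that of LGALS3BP stops 24 bases short of it. These 3 hold no exonic base in the annotation of the count files, although those of LGALS3 and LGALSL lie within the span given there for the gene. The 30 bases of LGALS9 run from 19 before the start to 11 past it, all within an annotated exon, and its motif crosses the start.
LGALS3, chr14:55129132-55129251, plus strand: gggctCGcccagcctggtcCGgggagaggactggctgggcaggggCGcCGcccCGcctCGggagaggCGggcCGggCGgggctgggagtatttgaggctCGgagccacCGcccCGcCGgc
LGALSL, chr2:64454042-64454161, plus strand: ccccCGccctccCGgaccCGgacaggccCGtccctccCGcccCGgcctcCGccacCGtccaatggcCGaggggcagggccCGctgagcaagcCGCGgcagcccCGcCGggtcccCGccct
LGALS3BP, chr17:78979948-78980043, minus strand: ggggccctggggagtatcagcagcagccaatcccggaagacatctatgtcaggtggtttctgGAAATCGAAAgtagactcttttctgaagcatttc
LGALS9, chr17:27631169-27631198, plus strand: gttgctttggTTTCTATTTCtttgttaagt

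Genes of the interferon response, a list set beside those motifs, did not pass. Of 12 such genes 3 were positive and 9 negative in fold change. Their median was -0.34 on the log2 scale, against 0.0056 over all genes tested. None passed edgeR over all genes or DESeq2, and 2 had an unadjusted p under 0.05 (13.5% of all tested genes did), both lower: IFIT1 and IFI44, named after their values were seen. IFIT1 had 3.72 and 1.55 CPM in controls and 0.928 and 1.40 CPM in resistant libraries. IFI44 had 30.7 and 21.0 CPM against 13.4 and 17.8 CPM. In both genes control replicate 1 was the highest library. Calls in this list appeared only with control replicate 2 left out, which leaves control replicate 1 as the sole control. Of the 10 list genes with a promoter window, 6 held the motif.

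Neighbouring genes give the chromosomal setting of each member. For LGALS1, the 10 nearest expressed genes on chromosome 22 (5 on each side, at least 1 CPM in the higher group) had a median log2 fold change of -0.07 and ranged from -0.57 to 0.27, so LGALS1 at -0.84 was below all of them. Around LGALS8, 7 of 10 neighbours were positive with a median of 0.23, close to the value of 0.24 for LGALS8 itself. The medians were -0.09 around LGALS3, -0.10 around LGALS3BP, -0.29 around LGALS9 and 0.10 around LGALSL. Of the 60 neighbours 1 passed edgeR, against 1.09% of all tested genes. This was the pseudogene TUFMP1 near LGALS9 (log2 -1.22, edgeR adjusted p = 0.034).

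**Figure D4:**
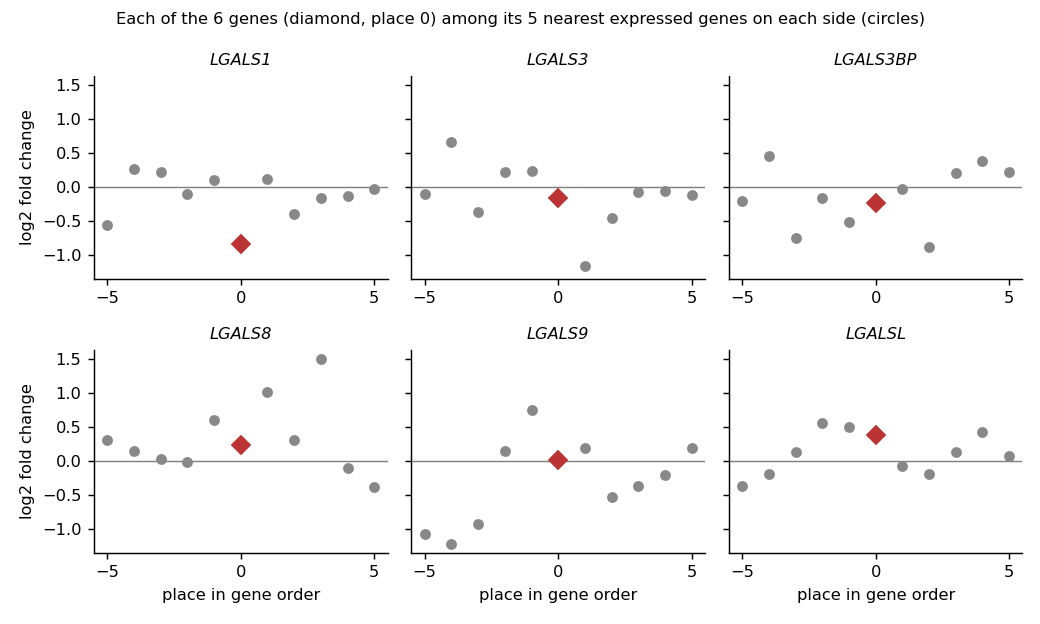
Log2 fold change of resistant over control (vertical axis) against place in gene order for each of the 6 genes (red diamonds, place 0) and the 5 nearest expressed genes on each side (grey circles). LGALS1 lies below its 10 neighbours, whose values run from -0.57 to 0.27, and the other 5 genes lie within the range of theirs.

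Genes of most similar pattern were found as the smallest root mean square difference of log2 CPM, centred on each gene's mean, over the 4 libraries, among 9839 other genes (9840 for LGALS9) that averaged 10 CPM or more. For LGALS1 these were WEE1, the gene of a mitotic inhibitor kinase (63.8, 60.3, 31.8 and 35.7 CPM in control replicates 1 and 2 and resistant replicates 1 and 2), and LRRFIP2 (61.7, 58.0, 33.8 and 34.1 CPM), at differences of 0.030 and 0.033. For LGALS3 they were RPIA and DDRGK1, for LGALS3BP C4orf46 and PDK1, for LGALS8 SPPL2B and UNC93B1, for LGALS9 PPFIA4 and PDK3, and for LGALSL UQCC4 and NDUFAF8. Likeness over 4 libraries is given as a description only.

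Enzymes that build the sugars galectins bind did not move together. The list of 21 genes covers N-glycan branching, galactose addition, lactosamine extension and core O-glycans. Of these 13 had a positive and 8 a negative fold change (median log2 0.10), and none passed edgeR over all genes. At an unadjusted p under 0.05, which 13.5% of all tested genes had, there were 5, of which 3 were higher (MGAT4A, B4GALT1 and GCNT1) and 2 lower (MGAT4B and B4GALT6), all 5 named after their values were seen. B4GALT1, a galactosyltransferase of lactosamine synthesis, had 110.2 and 144 CPM in controls and 213 and 194 CPM in resistant libraries. Its log2 fold change was 0.68 ± 0.19 (edgeR adjusted p = 0.159). DESeq2 called 2 of the list higher, B4GALT1 (adjusted p = 0.0475) and GCNT1, where it called 5.31% of all genes. With edgeR 2 were called when control replicate 2 was left out and 1 when control replicate 1 was, against 8.15% and 2.99% of all genes in those fits. MGAT5, which makes the branched N-glycans that carry most galectin-3 ligands, had 87.3 and 83.8 CPM in controls and 113 and 91.0 CPM in resistant libraries (log2 0.26, edgeR adjusted p = 0.609). B3GNT2, which extends lactosamine chains, had a log2 fold change of 0.19 (0.765), and C1GALT1, which makes core 1 O-glycans, one of 0.04 (0.965).

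Enzymes that cap or bisect such glycans were a list of 3 genes, of which 2 were tested and none passed edgeR. Both lay higher in each resistant library than in each control, as did 22.4% of all tested genes, and nothing is read from a count of 2. ST6GAL1, which adds the α2,6-linked sialic acid that blocks galectin-1 binding, had 46.0 and 75.3 CPM in controls and 92.6 and 97.1 CPM in resistant libraries. Control replicate 1 stood apart. The log2 fold change of ST6GAL1 was 0.64 ± 0.24 (edgeR adjusted p = 0.290), 0.33 (0.83) without control replicate 1 and 1.05 (0.00827) without control replicate 2. MGAT3, which adds the bisecting residue, had 2.88 and 2.06 CPM against 4.47 and 4.56 CPM (log2 0.87, edgeR adjusted p = 0.240). Both had an unadjusted p under 0.05, as 13.5% of all tested genes had, and DESeq2 called neither. ST6GAL2, the other gene of the list, had at most 4 counts in any library and did not pass the filter.

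Among 26 glycoproteins known as galectin ligands, of which 25 passed the filter, 13 had a positive and 12 a negative fold change (median log2 0.03). ITGB4, the β4 integrin subunit, was the 1 that passed edgeR over all genes, where 1.09% of tested genes did. It fell from 1482 and 1422 CPM to 114 and 256 CPM (log2 -2.97 ± 0.36, edgeR adjusted p = 0.0206). The list was drawn up with the fall of ITGB4 already known. At an unadjusted p under 0.05 there were 6 of the 25, 2 higher and 4 lower, against 13.5% of all tested genes. DESeq2, which called 5.31% of all genes, called 4: ITGB4, NRP1 and EGFR lower and CSPG4 higher, the last 3 named after their values were seen. NRP1, a co-receptor that galectin-1 binds, had 109 and 133 CPM in controls and 52.7 and 66.3 CPM in resistant libraries (log2 -1.02, edgeR adjusted p = 0.0589). CSPG4, a melanoma proteoglycan gene, had 470.4 and 1121 CPM in controls and 1791 and 1636 CPM in resistant libraries (log2 1.11, edgeR adjusted p = 0.226). LAMB1, a laminin chain gene named after its values were seen, had 1423 and 1096 CPM against 807 and 972 CPM (log2 -0.50, edgeR adjusted p = 0.340). P4HB, also named after its values were seen, went the other way. It had 361 and 452 CPM against 649 and 499 CPM (log2 0.50, edgeR adjusted p = 0.355). The edgeR calls moved with the library left out, at 7 genes with control replicate 2 removed (8.15% of all genes called) and 2 with control replicate 1 removed (2.99%), and NRP1 was called in both. The ligand genes BSG, CD44, MCAM and LAMP1, taken whatever their values, had log2 fold changes of -0.03, -0.34, 0.21 and 0.03, with edgeR adjusted p-values of 0.968, 0.515, 0.762 and 0.964. CD44, the hyaluronan receptor, had 1063 and 1170.1 CPM in controls and 778 and 986 CPM in resistant libraries, and LAMP1, a lysosomal membrane protein gene, stayed between 141 and 152 CPM. HAVCR2, which encodes TIM-3, had at most 18 counts in a library, and the leukocyte ligand gene PTPRC was at most 0.886 CPM.

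Intracellular partners of galectins had fold changes in both directions. Of 20 genes 9 had a positive and 11 a negative one, from -0.75 to 0.43 on the log2 scale (median -0.07). Groups did not overlap for 6 that were higher and 7 that were lower, where 22.4% and 22.2% of all tested genes did so. None passed edgeR over all genes, with 2 at an unadjusted p under 0.05 (13.5% of all tested genes). These were PDCD6IP, the gene of the ESCRT adaptor ALIX that galectin-3 recruits to damaged lysosomes (156 and 130 CPM against 85.6 and 83.8 CPM, log2 -0.75, edgeR adjusted p = 0.0954), and CTNNB1 (log2 -0.61, 0.188). Both were named after their values were seen. DESeq2 called PDCD6IP alone, and edgeR called both without control replicate 2, in a fit that called 8.15% of all genes. HRAS, whose product binds galectin-1, lay between 24.7 and 27.02 CPM in the 4 libraries (log2 -0.07, edgeR adjusted p = 0.920). CALCOCO2, the autophagy receptor gene NDP52 that galectin-8 recruits, had 92.4 and 104 CPM in controls and 101 and 96.9 CPM in resistant libraries, and TRIM16, a galectin-3 partner, 34.7 and 32.6 CPM against 30.7 and 29.3 CPM.

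**Figure D5:**
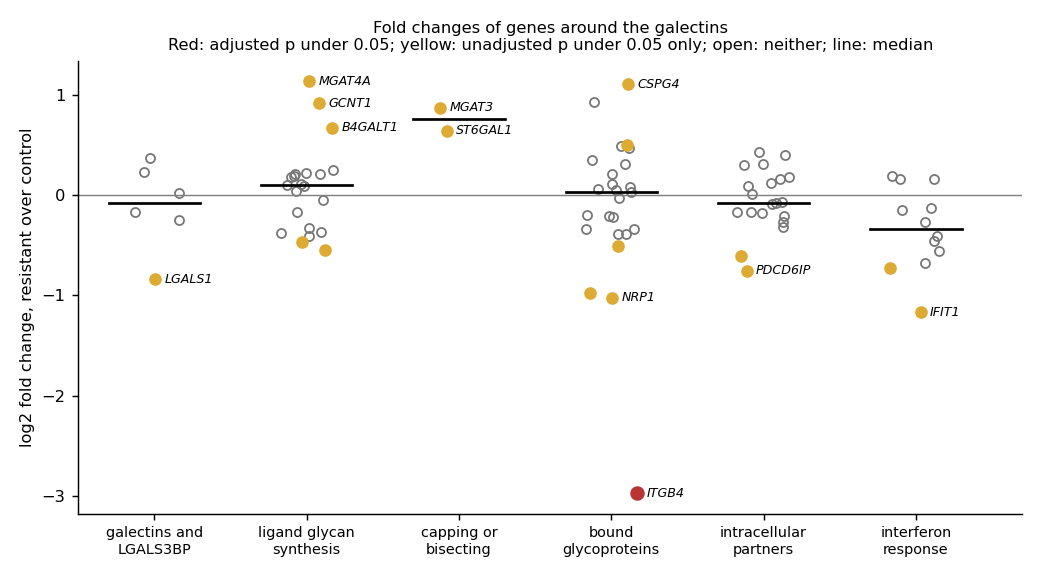
Log2 fold change of resistant over control (vertical axis) for each tested gene of the 6-gene set and of the 5 lists around it; red is adjusted p under 0.05, yellow unadjusted p under 0.05 only, open circles neither, and lines are medians. ITGB4 at -2.97 is the sole gene in red, and LGALS1 at -0.84 stands apart from the other 5 of its set.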

How the data were processed

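Raw read counts per gene, 1 file per library, were deposited by the authors. Per the file headers they came from featureCounts 2.0.0 with GENCODE release 42 on duplicate-marked alignments and no further option, so by that program's defaults strand was ignored, mates were counted singly and reads mapping to several places or genes were left out. STAR and GRCh38 are named in the submitters' processing notes. Every count of control replicate 1 was even, and an alternative halved it. The authors' deposited table of log2 fold changes names no comparison and entered no test.

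Of 62649 identifiers 62625 matched a symbol. Counts as deposited passed filterByExpr (24961 genes kept) and TMM scaling before quasi-likelihood F tests in edgeR 4.0.16 (R 4.3.3), group as the sole term, two-sided, Benjamini-Hochberg adjusted over all genes, threshold 0.05. Log2 fold changes are resistant over control, SE is their size divided by the square root of F, and 95% intervals use the test's degrees of freedom. Level per length divides CPM by exonic kilobases. On simulated counts for this comparison (24570 genes tested) 25 of 67 genes altered 2-fold (37.3%) were found again, as were 46 of 67 for 4-fold and 62 of 66 for 8-fold, beside 10 false calls. Alternatives were DESeq2 1.42.0, its size factors within edgeR, no filter, a replicate block, the halved library and each library left out.

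The genes and lists were chosen with earlier results of these data known. The lists were other galectins, ligand synthesis, capping or bisecting, bound glycoproteins, intracellular partners, interferon response and markers of 5 cell types. The rule for named genes takes all 6 members, other galectins of at least 1 CPM, listed genes past the threshold, 14 genes fixed whatever their values (2 of them are not reported here) and, for each member, the 2 genes of most similar pattern. A value of 0.5 was added to CPM before taking log2 for that pattern.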

Additional observations from a re-analysis of the deposited data

How the results depend on the processing

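LGALS3BP, LGALS8 and LGALSL kept their direction and missed the threshold in all 9 alternatives. LGALS1 kept its direction in all 9 and passed in 4: without the filter on low counts (log2 -0.82), with DESeq2 (-0.82) and without either control; leaving out 1 library gave -0.89 to -0.78. LGALS3 ranged from -0.52 to 0.13 and LGALS9 from -0.95 to 1.23 with 1 library left out; LGALS3 changed sign without resistant replicate 1 (0.13), LGALS9 without control replicate 2 (-0.64) and without resistant replicate 1 (-0.95). Genes called higher and lower (144 and 128) numbered 905 and 961 without the filter, 595 and 635 with DESeq2, 7 to 1146 and 9 to 1020 with 1 library left out. With no filter 1 other galectin, 3 synthesis genes, 1 capping gene, 4 glycoproteins and 1 intracellular partner were called, against 4.15% of all genes. With DESeq2 2 synthesis genes, 4 glycoproteins and 1 partner were called, against 5.31% of the genes to which it gave an adjusted p. With 1 library left out the calls were 0 to 1, 0 to 2, 0 to 1, 1 to 7 and 0 to 2 in these lists, and 0 to 3 interferon genes. The causes were not tested. The replicate block gave 33 higher and 31 lower calls, none among the 6 genes (LGALS1 edgeR adjusted p = 0.126). It lost the call of KRT14 (log2 -2.55, edgeR adjusted p = 0.0912). Same-numbered libraries did not deviate together from their group means (r = 0.002 over 10089 genes). With 2 libraries per group this cannot show whether libraries were made in pairs, and the titles do not say. For LGALS9 and the other galectins under 1 CPM, depth limits what can be seen.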

Other observations

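The authors' deposited table lists 1533 gene symbols with a log fold change and no named comparison, and LGALS1 is the 1 of the 6 genes in it, at -0.84. Of the symbols in the authors' deposited table, 1395 matched a tested gene, 1393 of these had the sign of the fold change computed here, and the median absolute difference was 0.026 on the log2 scale. The smallest value in size in the authors' deposited table was 0.40, and the other 5 genes were at 0.37 or less in size here. Listed genes with larger values here, such as CSPG4 (log2 1.11) and IFIT1 (-1.17), were missing from the authors' deposited table too. Why a gene was left out was not tested. The authors' deposited table also lists 10 genes of the surrounding lists, among them ITGB4 (-2.999), NRP1 (-1.04), PDCD6IP (-0.75), B4GALT1 (0.67) and MGAT4A (1.24).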
